A study of Sus scrofa with 41 samples.

Results

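The mitochondrial calcium uniporter is the channel that carries calcium into the mitochondrial matrix, and 5 of its genes were examined in pig psoas muscle, namely MCU, MCUB, SMDT1, MICU2 and MCUR1. The genes were taken by symbol from a list selected on earlier measured results of these same pigs. The values that selected them are not stated, and the slopes on feed conversion ratio are therefore treated as used in the choice and given as a description without a test. Of the 5 genes, 4 were found among the 25880 genes counted, and all 4 were among the 11146 genes with enough counts to be tested. MCUR1 was not matched by its identifier, and no value is given for it. MICU3, a gene of the same MICU family as MICU2, is given beside the members.

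The tissue was psoas major muscle, taken directly after slaughter from 41 uncastrated males, of which 13 were Danbred Duroc and 28 were Danbred Landrace. All pigs were fed freely and none was treated or genetically altered, and each pig gave 1 library of polyA RNA. The feed conversion ratio (FCR), the feed eaten per weight gained, ran from 1.83 to 2.18 in Duroc and from 1.92 to 2.25 in Landrace, so a low value marks an efficient pig. Age at sampling was 131 to 156 days in Duroc and 147 to 166 days in Landrace, and the pigs fell into 5 slaughter batches, the first of which held a single Duroc pig. RNA integrity (RIN, a scale on which high values mean intact RNA) ran from 7 to 8.8 in Duroc and from 6.5 to 8.3 in Landrace.

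Mitochondria take up calcium when the sarcoplasmic reticulum releases it during contraction, and matrix calcium stimulates several dehydrogenases that feed the respiratory chain. MCU forms the pore, while MCUB is a related subunit that can take the place of MCU in the pore and is known to lower its current. SMDT1 encodes EMRE, a small membrane protein that joins the pore to its gatekeepers. MICU2 is a calcium-binding gatekeeper that helps to keep the pore closed at resting calcium, MICU3 is a related calcium-binding protein known to enhance uptake, and MCUR1 is a regulator held to help in assembly.

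The libraries were of similar depth, between 22188911 and 25954816 counts on genes (median 25243577). Libraries differed in composition along with RIN, and the correlation of total count with RIN was 0.809 (Pearson, n = 41). Counts were therefore scaled by TMM, and with library size alone the median RIN slope of all genes moved by 0.31 and the median breed difference by -0.18 on the log2 scale. The directions below are relative to that median. Levels are in CPM, the count of a gene per megacount of its TMM-scaled library. Skeletal muscle markers were high, and the 4 measured (ACTA1, CKM, NEB and DES) summed to between 108709 and 194258 CPM in every pig, though they do not tell psoas from other muscles. In bulk tissue, a smaller number of cells of a type and less RNA per cell cannot be told apart.

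MCU (ENSSSCG00000010290) lies on chromosome 14 of Sscrofa11.1 from 75518533 to 75721502 by the RefSeq annotation. It had 858 to 5156 counts per pig. In Duroc its level was 76.1 CPM at the lowest, 120 at the median and 144 at the highest. In Landrace the lowest, median and highest levels were 59.6, 97.4 and 182 CPM. The breeds overlapped over most of their range, though 11 of 13 Duroc pigs lay above the Landrace median, and the highest Landrace value came from 1 pig (replicate 8) that stood well above the others.

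MCUB (ENSSSCG00000009141), on chromosome 8 from 112539188 to 112651417, was the least counted member, with 16 to 72 counts per pig, and an annotated long noncoding RNA overlaps it. In Duroc it measured 0.703 CPM at the lowest, 1.04 at the median and 2.22 at the highest. In Landrace the same 3 values were 0.724, 1.92 and 3.06 CPM. Most Landrace pigs were high and most Duroc pigs low, with 25 of 28 Landrace pigs above the Duroc median, but only 6 of 28 lay above the highest Duroc pig. The coefficient of variation between pigs was 39.6% in Duroc and 29.8% in Landrace, of which counting error alone would give 17.9% and 14.6%.

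SMDT1 (ENSSSCG00000020945), on chromosome 5 from 6568430 to 6571370, had 362 to 679 counts per pig. In Duroc its level was 15.7 CPM at the lowest, 20.5 at the median and 27.9 at the highest. In Landrace it was 14.2, 20.2 and 39.9 CPM. The medians of the breeds lay close together, and Landrace reached both lower and higher than Duroc. The SMDT1 value is uncertain, because the sum of its counts in both strand columns was 2.01 times its unstranded count, so about as many read pairs were set aside as ambiguous with another gene as were counted. A ratio that high or higher was found for 6.33% of the genes tested, while the ratio was 1.00 for MICU2, MCU and MCUB. In RefSeq the nearest genes, FAM109B at 258 bases and NDUFA6 at 1109 bases, do not overlap SMDT1.

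MICU2 (ENSSSCG00000024667), on chromosome 11 from 1421169 to 1500411, had 268 to 683 counts per pig and varied least among the members. In Duroc it measured 14.4 CPM at the lowest, 16.9 at the median and 20.2 at the highest. In Landrace it measured 14.5, 17.7 and 24.1 CPM. Its coefficient of variation was 12.5% in Duroc and 13.2% in Landrace, and 4 of 28 Landrace pigs lay above the highest Duroc pig. MICU3 ran from 1.12 to 4.24 CPM in Landrace and from 1.65 to 4.36 in Duroc. Levels of different genes were not compared with each other, since the counts are not per transcript length.

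**Figure D1:**
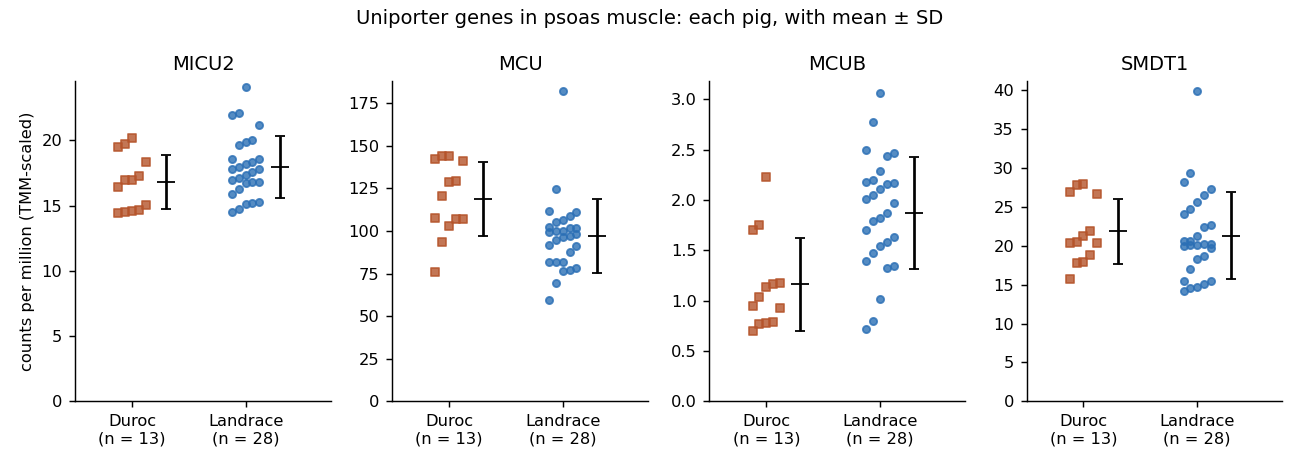
Level in CPM (TMM-scaled, vertical axis from 0) of MICU2, MCU, MCUB and SMDT1 in each of 13 Duroc and 28 Landrace pigs, with the mean and SD beside the points. MCUB is the member whose breeds are set furthest apart, with Landrace at a median of 1.92 against 1.04 in Duroc, and both breeds overlap in every panel.

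The breeds were compared in 1 model over all 41 pigs with FCR, RIN, age, breed and batch, fitted across all genes. Of the 4 members, 1 passed the threshold of an FDR of 0.1 (edgeR quasi-likelihood test, Benjamini-Hochberg), which is a share near the 33.1% of all genes that did so, with 15.6% of genes higher and 17.5% lower in Landrace. That member was MCUB, the subunit that can take the place of MCU. It was higher in Landrace by 0.76 on the log2 scale (SE 0.25, limma), or 1.70-fold, with an edgeR FDR of 0.0279. The other 3 members did not pass. MCU differed by -0.16 (SE 0.13, edgeR FDR 0.422), Landrace minus Duroc, MICU2 by 0.083 (SE 0.087, edgeR FDR 0.510) and SMDT1 by 0.022 (SE 0.12, edgeR FDR 0.921). Single pigs moved these 3 values by more than 1.5 times, to -0.054 for MCU without Landrace replicate 8, to 0.15 for MICU2 without Duroc replicate 3, 0.038 without Duroc replicate 6 and 0.050 without Landrace replicate 26, and across 0 for SMDT1 without Duroc replicate 10 or Landrace replicate 8. The MCU difference was -0.017 with the slow-fibre score and -0.34 with library size alone, and over the alternatives MICU2 lay between -0.092 and 0.19 and SMDT1 between -0.16 and 0.24. With library size alone, 0 of 4 members passed, where 37.1% of all genes did. MICU3, which is not a member, did not pass either, with -0.29 (edgeR FDR 0.317).

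Within batches, the MCUB difference went the same way in 3 of the 4 batches that held both breeds. In batch 2 the mean was 0.954 CPM in Duroc and 2.06 in Landrace, in batch 4 it was 1.21 and 2.44, and in batch 5 it was 1.14 and 1.76. In batch 3, with only 2 Duroc pigs, the order was turned, with 1.63 CPM in Duroc and 1.50 in Landrace. The call was lost when scaled by library size alone (0.58, edgeR FDR 0.110) and without Duroc replicate 3 (0.61, edgeR FDR 0.108), while the direction held in both.

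**Figure D2:**
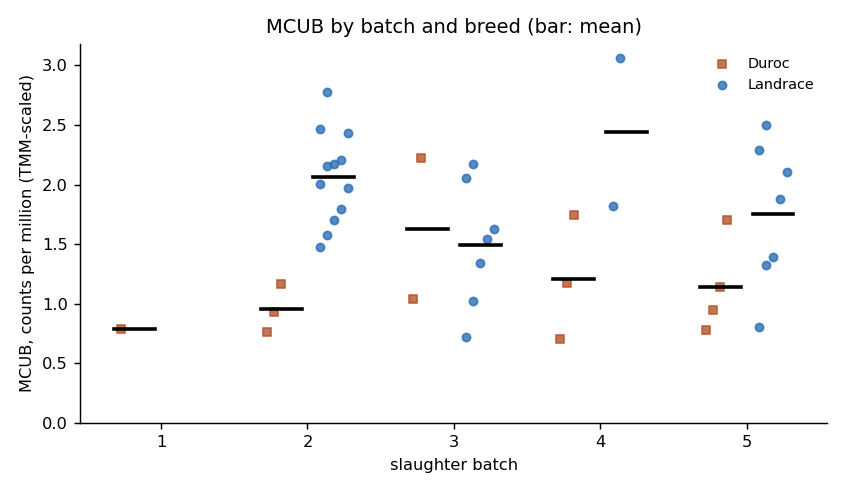
MCUB in CPM (vertical axis from 0) for each pig by slaughter batch (horizontal axis) and breed, with a bar at each mean. Landrace means lie above Duroc means in batches 2, 4 and 5 (for example 2.06 against 0.954 in batch 2), batch 3 has the reverse order (1.50 against 1.63), and batch 1 holds 1 Duroc pig.

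Markers of other cells also differed between the breeds. All 3 endothelial markers measured (PECAM1, CDH5 and KDR) were lower in Landrace, with a summed level of 47.8 to 145 CPM in Duroc and 27.2 to 121 in Landrace. Of the other lists, 1 of 4 fibroblast, 1 of 5 leukocyte and 1 of 3 adipocyte markers was lower, and none in these lists was higher. By library size alone the lower ones were 2 of 4, 2 of 5 and 1 of 3, again with none higher. The summed fibroblast level was 483 to 3674 CPM in Duroc and 482 to 10242 in Landrace, the leukocyte level 10.2 to 32.1 and 6.62 to 54.8, and the adipocyte level 19.1 to 143 (median 43.5) and 29.2 to 170 (median 68.4). The higher adipocyte median in Landrace went the same way as MCUB, but the only adipocyte marker that passed, ADIPOQ, went the other way (-2.67, edgeR FDR 0.0451). FABP4 differed by 0.25 (edgeR FDR 0.576) and CFD by 0.047 (edgeR FDR 0.888). No marker found in these lists was at 0 in every pig. With a score of 1 of these lists added to the model, the MCUB difference was 1.26 with the endothelial score (edgeR FDR 0.0388). It was 1.07 with the fibroblast score (edgeR FDR 0.000804), 0.85 with the leukocyte score (edgeR FDR 0.00848) and 0.80 with the adipocyte score (edgeR FDR 0.0156). Fibre markers moved as well, with 4 of 6 fast-fibre markers higher and 2 of 6 slow-fibre markers lower in Landrace, or 4 of 6 and 6 of 6 when scaled by library size alone. Of the general muscle markers, 3 of 4 (ACTA1, CKM and NEB) were higher in Landrace, and 0 of 4 by library size alone. With the slow-fibre score added the MCUB difference was 0.66 (edgeR FDR 0.0764), against 0.76 with no score added. Each of these scores holds at least 1 marker that itself differed by breed, so breed and score overlap in these fits. The part of these cells and fibres in the MCUB difference was not tested.

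Ratios of counts between subunits within a pig do not depend on how libraries are scaled. MCUB relative to MCU was higher in Landrace by 0.99 on the log2 scale, or 1.99-fold, with SDs between pigs of 0.56 in Landrace and 0.55 in Duroc (permutation test, two-sided, p = 1e-05, the smallest that 100000 permutations can give, adjusted p = 5e-05 over 5 ratios). The ratio was higher in Landrace in each batch with both breeds, by 1.32, 0.43, 1.29 and 0.62 in batches 2 to 5. A least-squares fit with FCR, RIN, age and batch gave 0.90 (SE 0.30).

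The other ratios to MCU gave smaller differences. MICU2 relative to MCU was higher in Landrace by 0.39 (SD 0.30 in Landrace and 0.31 in Duroc, permutation test, two-sided, p = 0.00038, adjusted p = 0.00095), and within batches 2 to 5 by 0.097, 0.57, 0.67 and 0.25. Adjusted for FCR, RIN, age and batch, this difference was 0.23 (SE 0.14), less than 2 SE from 0. SMDT1 relative to MCU differed by 0.24 (permutation test, two-sided, p = 0.175, adjusted p = 0.219), within the spread between pigs.

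SMDT1 had the steepest RIN slope of the members. In the 6 pigs with a RIN of 7.4 or lower SMDT1 stood at 27.9 ± 6.72 CPM (SD), against 18.7 ± 3.99 in the 12 pigs with a RIN of 8.3 or higher. MCU went the other way in the same pigs, at 88.3 ± 16.7 CPM against 116 ± 23.3. MICU2 stood at 18.4 ± 2.96 and 17.1 ± 2.24 CPM, and MCUB at 1.60 ± 0.624 and 1.61 ± 0.645. The 6 pigs were 5 Landrace and 1 Duroc and the 12 were 6 and 6, so breed is mixed into these means.

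In the model over all genes, 2 of the 4 members changed with RIN, against 51.8% of all genes (23.9% rose and 27.9% fell with RIN), so the share of members is near the background. SMDT1 fell by 0.51 on the log2 scale per unit of RIN (SE 0.090, limma, edgeR FDR 2.04e-05). MICU2 fell by 0.17 (SE 0.067, edgeR FDR 0.0346). The slopes of MCU (0.14, SE 0.10, edgeR FDR 0.281), MCUB (0.22, SE 0.20, edgeR FDR 0.349) and MICU3 (0.056, SE 0.17, edgeR FDR 0.812) did not pass. The MCU call depended on the model, since its slope passed with the slow-fibre score added (0.26, edgeR FDR 0.0493), with batch as a number (0.21, edgeR FDR 0.0967) and without Landrace replicate 8 (0.22, edgeR FDR 0.0199). It was 0.23 (edgeR FDR 0.177) without Landrace replicate 1 and 0.070 (edgeR FDR 0.631) without Landrace replicate 27. Over the alternatives that kept all pigs or left out those below RIN 7, it lay between 0.033 with total count added and 0.44 with library size alone, and the MCUB slope between 0.11 with the slow-fibre score and 0.52 with library size alone. All 4 members passed when scaled by library size alone, where 63.8% of all genes did. Relative to the median of all genes, the slopes were -0.50 for SMDT1, -0.16 for MICU2, 0.15 for MCU and 0.23 for MCUB with TMM, and -0.49, -0.15, 0.14 and 0.22 with library size alone.

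The fall of SMDT1 held in every alternative tried, at -0.19 to -0.58. The MICU2 slope was less firm. It turned to 0.15 (edgeR FDR 0.0976) when scaled by library size alone, it was -0.082 (edgeR FDR 0.522) without the 2 pigs with a RIN below 7, which measured 22.1 and 21.9 CPM of MICU2 and were among its highest, and -0.069 (edgeR FDR 0.384) with the slow-fibre score added. Leaving out a single pig ended the MICU2 call in 10 of 41 fits (Duroc replicate 13 and Landrace replicates 1, 8, 14, 15, 17, 20, 21, 24 and 25), with slopes from -0.13 to -0.12 in those fits. Of the slow-fibre markers, 5 of 6 fell with RIN as well (2 of 6 when scaled by library size alone), as did 3 of 6 fast-fibre markers, while the other 3 rose. Other markers moved with RIN too, with 2 of 4 fibroblast markers rising (PDGFRA by 1.62, edgeR FDR 0.000875, and COL3A1 by 0.93, edgeR FDR 0.00868). The adipocyte marker CFD (-0.62, edgeR FDR 0.000374) and the leukocyte marker CD3E (-0.67, edgeR FDR 0.0758) fell, as did DES (-0.35, edgeR FDR 0.000954), while NEB rose (0.49, edgeR FDR 9.1e-06). None of the 3 endothelial markers passed with TMM. These counts moved with the scaling, and by library size alone 3 of 4 fibroblast, 3 of 4 muscle, 1 of 5 leukocyte, 1 of 3 adipocyte and 1 of 3 endothelial markers rose, while of these lists 1 adipocyte marker fell. The part of these markers in the RIN slopes of the members was not tested.

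**Figure D3:**
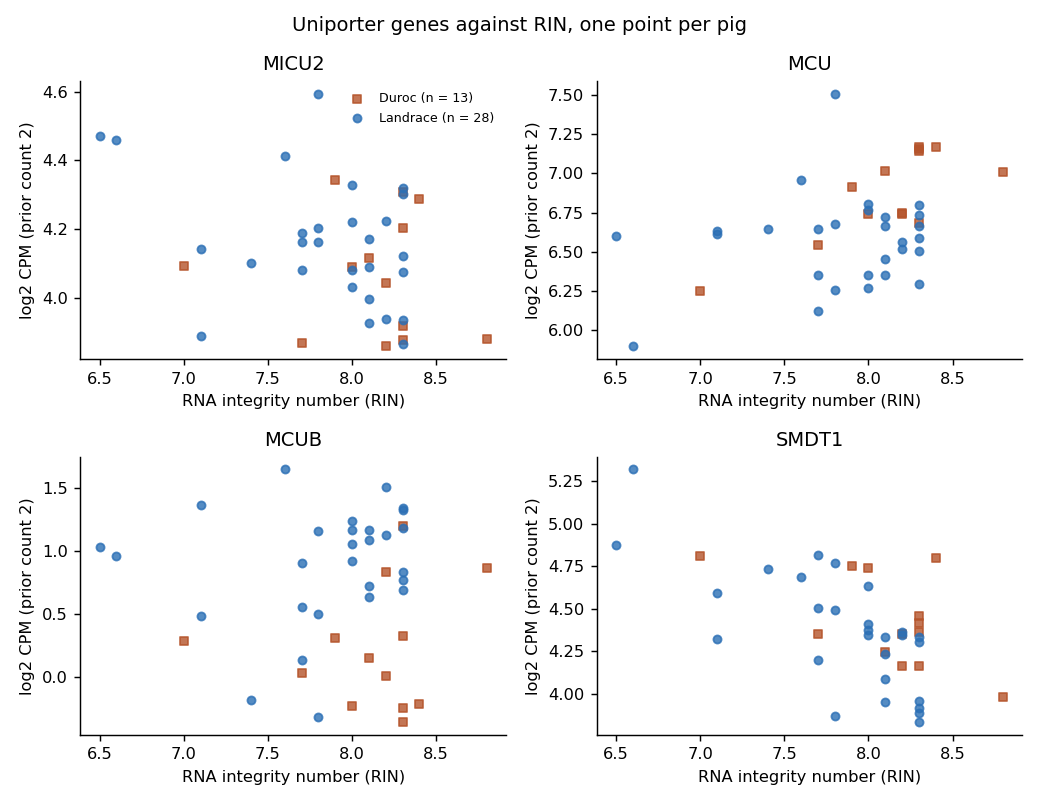
Log2 CPM (prior count 2, vertical axes) of MICU2, MCU, MCUB and SMDT1 against RIN (horizontal axes), 1 point per pig, Duroc as squares and Landrace as circles. SMDT1 is lower in pigs with high RIN (fall of 0.51 per unit), MCU has the opposite tilt without passing the test, and the 2 pigs below RIN 7 are among the highest for MICU2.

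No difference between the breeds in their RIN slopes was found. The RIN by breed term called 0 members and 0 of 11146 genes, that is 0%, with edgeR, where 541 genes had an unadjusted p under 0.05, with limma 1 gene and with DESeq2 0 genes. The slope in Landrace minus that in Duroc was -0.18 for MCU (SE 0.22), -0.097 for SMDT1 (SE 0.20), -0.056 for MCUB (SE 0.48) and -0.013 for MICU2 (SE 0.15), so that differences of these sizes could not be told from 0. Age called 0 of 4 members with edgeR, limma and DESeq2, none of them with an unadjusted p under 0.05, against 1.76% of all genes with edgeR. The age slopes per 10 days were -0.26 for MCUB (SE 0.20), -0.18 for MCU (SE 0.11), -0.11 for MICU2 (SE 0.070) and -0.059 for SMDT1 (SE 0.096), none past the threshold. Without Duroc replicate 8 the MCUB slope was -0.077, and without Duroc replicate 13 those of MICU2 and SMDT1 were -0.050 and 0.0034. The SMDT1 slope was also -0.032 without Duroc replicate 10, -0.037 without Landrace replicate 8 and -0.091 without Landrace replicate 20. With batch as a number the MICU2 slope was -0.033, and without RIN the SMDT1 slope was -0.16.

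Across pigs, 11 of 20 correlations between a member and a library or muscle measure had an adjusted p under 0.1, and each measure comes from the same libraries as the members. The share of all genes with such correlations was not computed. In the model over all genes 51.8% changed with RIN, so the count is not read as particular to the members. SMDT1 went down with RIN (Pearson r = -0.633, Spearman rho = -0.544, permutation p = 4e-05, adjusted p = 0.0007, n = 41), and r was -0.484 without the 2 pigs farthest from the median RIN. Within batches 2, 3 and 5 the r was -0.726, -0.431 and -0.646, so it held in each. Scaled by library size alone it was -0.177 (adjusted p = 0.386). SMDT1 also went up with the mitochondrially encoded share of counts (r = 0.576, rho = 0.429, permutation p = 7e-05, adjusted p = 0.0007), with r = 0.397 without the 2 farthest pigs, but within batch 3 r was -0.299, against 0.639 and 0.789 in batches 2 and 5, and by library size alone it was 0.128 (adjusted p = 0.505). That share is itself bound to RIN in these libraries (r = -0.692).

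MICU2 followed the slow-fibre score, the mean of the standardised levels of slow contractile genes (r = 0.518, rho = 0.497, permutation p = 0.00051, adjusted p = 0.00255). The value was 0.406 without the 2 farthest pigs, and 0.732, 0.897 and 0.243 within batches 2, 3 and 5. It was 0.260 (adjusted p = 0.168) by library size alone, which kept the direction but not the call. MICU2 with the mitochondrially encoded share gave r = 0.436 (rho = 0.458, permutation p = 0.00407, adjusted p = 0.0141), but this turned to -0.325 with library size alone.

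MCU rose with RIN without adjustment for other terms (r = 0.404, rho = 0.400, permutation p = 0.00894, adjusted p = 0.0255). The r was 0.307 without the 2 farthest pigs, and 0.133, 0.101 and 0.725 within batches 2, 3 and 5, so it was high in batch 5 alone. By library size alone it was 0.664 (adjusted p = 0.0002). Further calls appeared there for MCU with the mitochondrially encoded share (-0.514, adjusted p = 0.00667) and MCUB with that share (-0.438, adjusted p = 0.012). MCUB with total count (0.349, adjusted p = 0.0542) and MICU2 with total count (0.483, adjusted p = 0.0113) passed there as well. MCUB followed the adipocyte score (r = 0.435, rho = 0.382, permutation p = 0.00424, adjusted p = 0.0141), with 0.322 without the 2 farthest pigs. Both breeds were pooled without adjustment in these correlations. MCUB and the median summed adipocyte level were both higher in Landrace, so breed is mixed into this r. Within batches 2, 3 and 5 it was 0.431, -0.0057 and 0.275, so it was near 0 in batch 3. The other 5 correlations past that threshold were SMDT1 with total count (r = -0.543, rho = -0.383, permutation p = 0.00035, adjusted p = 0.00233) and, with adjusted p from 0.0519 to 0.0838, MICU2 with RIN, MCU with total count and both MCUB and SMDT1 with the slow-fibre score. For SMDT1 with total count the r was -0.304 without the 2 farthest pigs, -0.681, 0.0107 and -0.706 within batches 2, 3 and 5, and -0.0476 (adjusted p = 0.771) by library size alone. MCU with total count went from 0.362 to 0.0386 without the 2 farthest pigs, and was 0.0325, -0.104 and 0.888 within these batches. MICU2 with RIN went from -0.352 to -0.120, with -0.739, 0.119 and -0.255 within batches. SMDT1 with the slow-fibre score went from 0.315 to 0.379, but was -0.502 in batch 3. MCUB with that score went from -0.322 to -0.365 and was below 0 in each of these batches.

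Among the members themselves, none of the 6 pairs had an adjusted p under 0.1 with TMM scaling. With library size alone 2 pairs did, as MICU2 with MCU went from 0.104 to 0.612 (adjusted p = 0.0003) and MICU2 with MCUB from 0.126 to 0.386 (adjusted p = 0.0356). The strongest were MCU with SMDT1 (r = -0.316, rho = -0.188, permutation p = 0.0434, adjusted p = 0.207, n = 41) and MICU2 with SMDT1 (r = 0.287, rho = 0.245, permutation p = 0.0689, adjusted p = 0.207). Without the 2 farthest pigs the first was -0.0571, so the unadjusted r rested on them, and the second was 0.394. With FCR, RIN, age, breed and batch taken out, MCU with SMDT1 gave -0.417, and -0.222 without the 2 pigs farthest in the adjusted MCU level, while MICU2 with SMDT1 gave 0.107. Within batches 2, 3 and 5 they were -0.132, -0.497 and -0.758 for MCU with SMDT1, and 0.742, -0.628 and 0.428 for MICU2 with SMDT1. The pore genes MCU and MCUB gave r = -0.195 (rho = -0.166, permutation p = 0.221, adjusted p = 0.331), and 0.156 with library size alone.

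The genes most like each member across the 41 pigs differed from member to member, as judged by the Pearson r of log2 CPM after FCR, RIN, age, breed and batch were taken out, over 9828 genes with a symbol. For MCU they were ETFDH, which passes electrons from fatty acid oxidation to the respiratory chain (0.762), and the Z-disc genes PDLIM5 (0.746) and ACTN2 (0.743). For MICU2 they were NDUFA5 (0.699), a subunit of complex I, the myosin light chain gene MYL12A (0.688) and UQCRFS1 (0.684), the iron-sulphur subunit of complex III. For SMDT1 they were the complex I subunit NDUFB1 (0.686), NUDCD2 (0.685) and GTF2A2 (0.682), a general transcription factor subunit. For MCUB they were the actin regulators ARPC5 (0.757) and DBNL (0.751) and the kinase FYN (0.746), none of which is a mitochondrial gene.

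Slopes on FCR were fitted in each breed apart, as log2 change per 0.1 higher FCR (DESeq2, with RIN, age and batch), and are given as estimates with their SE, since FCR is treated as used in choosing the members. In Landrace, MCU had a slope of 0.14 (SE 0.078), MCUB 0.088 (SE 0.11), MICU2 0.071 (SE 0.044) and SMDT1 -0.084 (SE 0.071). In Duroc, MCU had -0.0074 (SE 0.070), MCUB 0.086 (SE 0.22), MICU2 -0.053 (SE 0.080) and SMDT1 -0.11 (SE 0.080). Of the 4 members, 3 had a positive slope in Landrace and 1 in Duroc, and SMDT1 was below 0 in both breeds. The Duroc slopes of MCU and MICU2 lay within 1 SE of 0. The median slope of all genes was -0.0014 in Landrace and 0.010 in Duroc. The Duroc fit had 13 pigs for 8 terms, and its estimates are thinly based, with the pig alone in batch 1 fitted by its own term. Single pigs moved several of these slopes by more than 1.5 times. In Landrace, MCU was 0.046 without replicate 8, MCUB was 0.031 without replicate 24 or without replicate 25, SMDT1 was -0.048 without replicate 8 and -0.035 without replicate 11, and MICU2 was 0.045 without replicate 8 or without replicate 23. In Duroc, leaving out replicate 4, 5, 6, 8, 10, 11 or 12 moved MCUB that far, from -0.39 without replicate 11 to 0.30 without replicate 6, and leaving out replicate 6, 10, 11 or 12 moved MCU, from -0.041 without replicate 10 to 0.026 without replicate 11, while MICU2 was -0.035 without replicate 11. Other model terms moved them as well. In Landrace, SMDT1 was -0.041 with both strand columns summed and -0.028 without RIN, and MCUB was 0.17 with batch as a number. In Duroc, MCUB was 0.0095 without age, 0.18 without RIN and 0.14 with batch as a number, MICU2 was -0.032 with batch as a number, and MCU lay between -0.075 and 0.029 over the alternatives.

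The pigs at the ends of the FCR range show the levels on the measured scale, without adjustment for RIN, age or batch. In Landrace, MCU was 93.3 ± 11.6 CPM (SD) in the 10 pigs with an FCR of 2.06 or lower and 110 ± 29.7 in the 9 pigs with 2.14 or higher. Much of this came from 1 pig, since without Landrace replicate 8 (FCR 2.22, 182 CPM) the MCU slope in Landrace was 0.046. In Duroc, SMDT1 was 26.1 ± 2.82 CPM in the 4 pigs with an FCR of 1.9 or lower and 19.3 ± 1.22 in the 4 with 1.99 or higher. In Duroc, MCU was 118 ± 32.7 and 108 ± 15.3 CPM in the same pigs. The Landrace values of SMDT1 were close together, at 20.6 ± 4.08 and 20.4 ± 4.44 CPM. With FCR as the only term, the SMDT1 slope was -0.014 in Landrace and the MCU slope -0.075 in Duroc, so both depended on the other terms.

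For MICU2 the same pigs stood at 17.1 ± 1.83 and 18.5 ± 2.57 CPM in Landrace, and at 17.0 ± 1.98 and 16.1 ± 1.96 in Duroc. MCUB in Duroc was 0.851 ± 0.196 CPM at low and 1.11 ± 0.410 at high FCR, but its slope there turned to -0.39 without Duroc replicate 11 (FCR 1.83). The MCUB values in Landrace were 1.81 ± 0.580 and 1.93 ± 0.658 CPM. MICU2 was thus slightly higher at high FCR in Landrace and slightly lower in Duroc, with overlapping pigs in both.

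**Figure D4:**
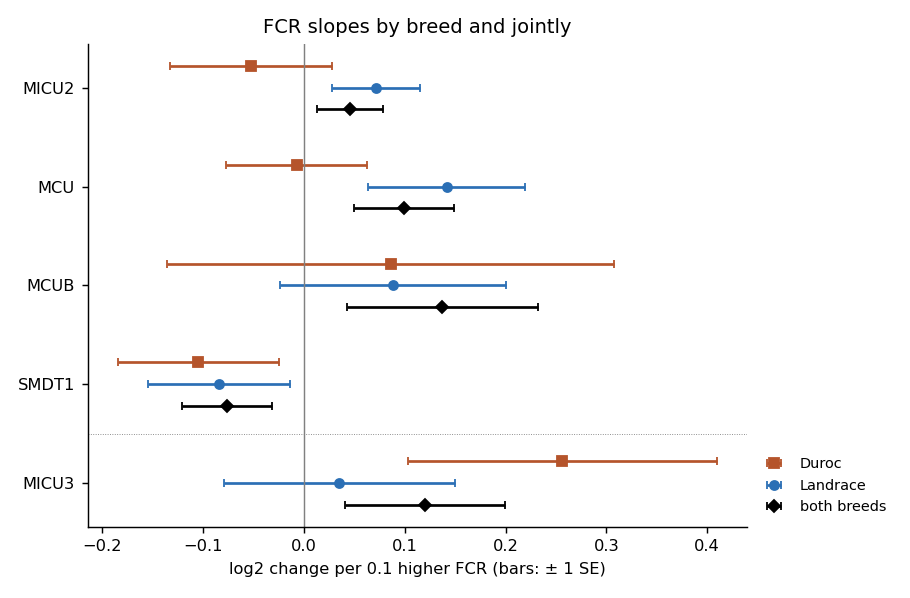
Slopes on FCR as log2 change per 0.1 higher FCR (horizontal axis, bars ± 1 SE) for the 4 members and, under the dotted line, MICU3, in Duroc (DESeq2, n = 13), Landrace (DESeq2, n = 28) and both breeds (edgeR, SE from limma). SMDT1 lies below 0 in each fit and MCU at -0.0074 in Duroc and 0.14 in Landrace.

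Over both breeds the slopes were 0.14 for MCUB (SE 0.095), 0.10 for MCU (SE 0.050), 0.045 for MICU2 (SE 0.033) and -0.077 for SMDT1 (SE 0.044). Scaled by library size alone they were 0.20, 0.16, 0.10 and -0.021. The MICU2 slope was also 0.024 with batch as a number and 0.029 without age. Over all genes this joint model called 0 of 11146 for FCR, that is 0% (edgeR), where 968 genes had an unadjusted p under 0.05, while limma called 0 genes and DESeq2 called 5. The slope in Landrace minus that in Duroc was 0.16 for MCU (SE 0.098), 0.10 for MICU2 (SE 0.064), 0.058 for MCUB (SE 0.20) and 0.019 for SMDT1 (SE 0.090). MICU3, beside the members, had 0.26 in Duroc (SE 0.15) and 0.035 in Landrace (SE 0.11).

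**Figure D5:**
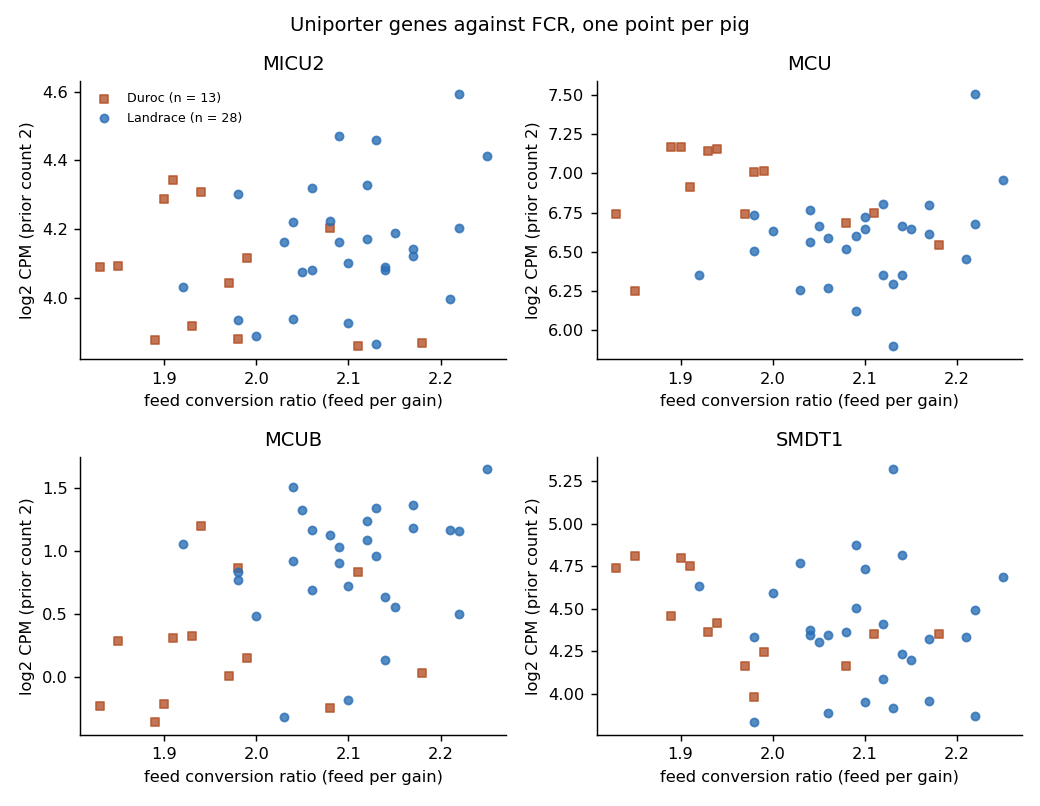
Log2 CPM (prior count 2, vertical axes) of MICU2, MCU, MCUB and SMDT1 against FCR (horizontal axes), 1 point per pig, Duroc as squares and Landrace as circles. Duroc pigs reach lower FCR (from 1.83), Landrace pigs reach higher FCR (to 2.25), and in the MCU panel 1 Landrace pig at an FCR of 2.22 lies above all others.

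Other genes of mitochondrial calcium handling were counted from a list of 28, of which 26 were found and tested. By breed, 2 were higher and 7 lower in Landrace (edgeR FDR under 0.1) and 17 did not pass, beside 15.6% higher and 17.5% lower of all genes, with a median of -0.057 against -0.0024 for all genes. The higher ones were MAIP1, which guards the assembly of EMRE (0.22, SE 0.079, edgeR FDR 0.0414), and LETMD1 (0.18, SE 0.068, edgeR FDR 0.0508). The lower ones with the smallest p were the calcium-stimulated aspartate-glutamate carrier SLC25A12 (-0.40, SE 0.12, edgeR FDR 0.0106), the pyruvate dehydrogenase subunit PDHA1 (-0.38, SE 0.12, edgeR FDR 0.0141) and PDPR, a regulator of pyruvate dehydrogenase phosphatase (-0.27, SE 0.091, edgeR FDR 0.0276). Scaled by library size alone, the counts were 0 higher and 10 lower, where 4.79% of all genes were higher and 32.3% lower.

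With RIN, 4 of the 26 rose, 6 fell and 16 did not pass, beside 23.9% rising and 27.9% falling of all genes, with a median of 0.044 against -0.010 for all genes. The rising genes with the smallest p were IDH3A, a subunit of the calcium-stimulated isocitrate dehydrogenase (0.53, SE 0.13, edgeR FDR 0.00123), the pyruvate dehydrogenase phosphatase PDP1 (0.66, SE 0.17, edgeR FDR 0.00242) and the carrier SLC25A24 (0.60, SE 0.18, edgeR FDR 0.00891). The falling ones were SPG7, a subunit of the m-AAA protease (-0.50, SE 0.075, edgeR FDR 1.47e-06), VDAC3, a channel of the outer membrane (-0.42, SE 0.067, edgeR FDR 3.66e-06), and IDH3G (-0.38, SE 0.065, edgeR FDR 8.04e-06). IDH3A and IDH3G, subunits of a single enzyme, thus moved in opposite directions with RIN when scaled by TMM. By library size alone IDH3A was 0.83 (edgeR FDR 4.52e-05), while IDH3G was -0.071 and did not pass (edgeR FDR 0.345). Scaled by library size alone, 18 rose and 1 fell, where 55.8% of all genes rose and 7.91% fell. With age, 0 of 26 passed in the edgeR test with TMM scaling.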

How the data were processed

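RNA of 41 psoas muscles was sequenced by the authors as unstranded read pairs. Per the submitters' processing notes, reads were trimmed with Trimmomatic 0.39 and aligned with STAR 2.7.1a. The authors deposited raw counts of read pairs per Ensembl gene on Sscrofa11.1 (25880 genes), not normalized, with a column for unstranded counting, used here, and a column for each strand. Pairs on overlapping or antisense genes cannot be told apart. All samples were used, with breed, FCR, RIN, age and batch from the labels. No 2 of the 41 libraries (820 pairs) were alike within counting noise.

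The members, lists and tests were chosen with earlier results of these data known. Named genes are the members, MICU3, the 3 calcium genes with the smallest p in each direction for breed and for RIN, and the 3 genes most like each member. Symbols, from a table of Ensembl names, matched 14857 genes. Positions are from RefSeq on Sscrofa11.1. 1 further gene is not reported here. MCUR1 was not matched, so 20 correlations with measures, 6 pairs and 5 ratios were computed in place of 25, 10 and 6 planned.

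Genes were kept by filterByExpr (minimum count 10, 11146 genes) and tested with the edgeR 4.0.16 quasi-likelihood test (legacy form, TMM, R 4.3.3) on FCR, RIN, age, breed and batch, at a Benjamini-Hochberg FDR of 0.1. SEs came from limma 3.58.1 with voom. FCR slopes within breeds came from DESeq2 1.42.0 (at least 5 counts in every pig). Ratios used a pseudocount of 0.5 and were tested with 100000 permutations, as were correlations (SciPy 1.17.1). The scripts were tested on simulated data. P-values measure the spread between pigs, whose relatedness is not given in the sources used here.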

Additional observations from a re-analysis of the deposited data

How the results depend on the processing

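Sample size, RNA quality and scaling limited these results: 13 Duroc pigs left little to estimate from, RIN and depth moved together, and MCUB had few counts. Scaled by library size alone, 4 members changed with RIN (beside 63.8% of all genes) and 0 differed by breed (beside 37.1%), the MICU2 RIN slope was 0.15, the SMDT1 age slope 0.011, and the breed differences of MICU2 and SMDT1 -0.092 and -0.16. The correlations turned to 0.421 for MICU2 with RIN, 0.483 with total count and -0.325 with the mitochondrially encoded share, to 0.232 for MCUB with RIN and to 0.156 for MCU with MCUB, and 2 pairs of members passed (MICU2 with MCU and with MCUB). The calls of SMDT1 with RIN, total count, the mitochondrially encoded share and the slow-fibre score, and of MICU2 with the slow-fibre score, were lost. MCU and MCUB with the mitochondrially encoded share, and MCUB and MICU2 with total count, passed there but not with TMM. By construction these shifts follow the medians of all genes.

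Only 1 member changed with RIN without a filter on low counts, without the 2 pigs with RIN below 7, with both strand columns summed and with total count added. With the slow-fibre score and without Landrace replicate 8, MCU passed with RIN in place of MICU2. By breed, 2 members passed without age (MCU at -0.28, edgeR FDR 0.0973) and with the slow-fibre score (MICU2 at 0.19, edgeR FDR 0.0811). The SMDT1 breed difference was -0.018 without age, -0.019 with batch as a number, -0.072 with the endothelial score and -0.045 with the fibroblast score, and MCU reached 0.048 with the endothelial score. In Duroc 2 slopes on FCR were positive with edgeR, with limma and without RIN, as MCU passed 0. Leaving out 1 pig at a time gave 0 to 1 members by breed, 1 to 2 with RIN, 1 to 2 positive Duroc slopes, SMDT1 breed differences of -0.012 to 0.070 and SMDT1 age slopes of -0.091 to 0.0034. Alternatives with summed strands or cell scores, and total count, were chosen after the data were seen. The causes were not tested. No paired analysis was possible because replicate numbers are only names.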
